A study of Mus musculus with 12 samples.

Results

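A set of 10 genes of lipopolysaccharide (LPS) recognition and signalling were examined for FRA-1 peaks in mouse peritoneal macrophages. They are the receptor genes Tlr4, Ly96, Cd14 and Tlr2, the adaptor genes Myd88 and Ticam1, the kinase genes Irak2 and Irak3, the ubiquitin ligase gene Traf6 and the kinase gene Map3k8. These 10 genes were listed by function, out of 21883 protein-coding genes that RefSeq places on the chromosomes of GRCm38. ChIP-seq enriches chromatin fragments with an antibody and sequences them, here with FRA-1 as the target, the AP-1 transcription factor encoded by Fosl1, and a peak is a stretch where the recovered fragments pile up above background. A peak was counted at a gene when it lay within the gene body or 20 kb to either side, or when the deposited table gave it the gene's symbol. Peaks measure binding, so that the amount of transcript or protein of these genes is not known from these data.

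LPS, a component of the outer membrane of Gram-negative bacteria, is handed by CD14 to the complex of TLR4 and MD-2, the product of Ly96. TLR4 then signals through the adaptor MyD88, which recruits IRAK kinases and TRAF6, and through the adaptor TRIF, the product of Ticam1, which leads to type I interferon. Both branches reach NF-κB and the MAP kinases, and AP-1 proteins such as FRA-1 are among the transcription factors that act at the end of the MAP kinase pathways.

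The macrophages came from 8-week-old mice, of a 129/C57Bl6 background by the sample records and C57Bl/6 by the study's design text, with no engineered allele named for these samples. By the sample records, the cells were elicited with thioglycollate and harvested 72 h later, while the design text gives plain lavage. Each of the 3 conditions (unstimulated, 1 h of LPS, and 1 h with apoptotic cells) has 3 replicates of adherent cells. The LPS dose is 10 µg/mL in the design text and 1 µg/mL in the sample records, and apoptotic cells were given at a ratio of 1:5. The adherent cells were not sorted, and binding at a gene is an average over all cells in the dish.

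Each of the 9 replicates had its own list of peaks, of 20981 to 28314 peaks without stimulation. After LPS the lists held 39728 to 63010 peaks, and with apoptotic cells 31501 to 79474. The tables hold no read counts and the sequencing depth is unknown. The replicates are numbered by their column in each table, and the columns name no mouse. The smallest peak width was 104 to 116 bp in 4 replicates, here called narrow, and 158 to 172 bp in the other 5, called wide. The narrow ones were unstimulated replicate 3, LPS replicates 1 and 3 and apoptotic cell replicate 3. By median width, apoptotic cell replicate 3 (172 bp) lay between the other narrow replicates (113 to 140 bp) and the wide ones (190 to 223 bp). Each unstimulated replicate shared more of its peaks with LPS replicates 1 and 3 than with its own group. For unstimulated replicate 3 the shares were 30.7% and 34.3%, against 9.81% and 10.4% with unstimulated replicates 1 and 2. For unstimulated replicate 1 they were 12.4% and 13.3%, against 7.42% and 10.9% with unstimulated replicates 2 and 3. For unstimulated replicate 2 they were 15.8% and 16.8%, against 8.97% and 13.99% with unstimulated replicates 1 and 3. The LPS lists were longer than the unstimulated ones, and the effect of list length on these shares was not tested. In LPS replicate 2, 11.5% and 12.5% of the peaks coincided with those of LPS replicates 1 and 3. By comparison, 46.3% of the peaks of LPS replicate 1 coincided with those of LPS replicate 3. The shares of LPS replicate 2 with replicates of the other conditions were lower still, from 5.57% to 9.88%.

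Unstimulated macrophages had few FRA-1 peaks at the LPS signalling genes, as at protein-coding genes in general. The mean density was 0.966 peaks per 100 kb of gene body and flank, against 1.01 over all protein-coding genes. Summed over the 10 genes, the unstimulated replicates had 2, 5 and 11 peaks, the LPS replicates 15, 7 and 32, and the apoptotic cell replicates 10, 11 and 30. In group means this was 6 ± 4.58 peaks without stimulation, 18 ± 12.8 after LPS and 17 ± 11.3 with apoptotic cells (SD, n = 3 each). The groups overlapped, as unstimulated replicate 3 had more peaks than LPS replicate 2 and apoptotic cell replicate 1 and as many as apoptotic cell replicate 2. Within the narrow class, the only unstimulated replicate had 11 peaks, the LPS replicates averaged 23.5 and the apoptotic cell replicate had 30. Within the wide class, the averages were 3.5, 7.0 and 10.5 in the same order.

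The replicates with the most peaks at these genes were also those with the longest peak lists. Per 10000 peaks of a replicate, 0.789, 2.38 and 3.89 lay at the 10 genes without stimulation, 3.26, 1.76 and 5.08 after LPS, and 2.45, 3.49 and 3.77 with apoptotic cells. On this scale the ranges of the 3 conditions overlapped, with LPS replicate 3 above and unstimulated replicate 1 below all other replicates. Per 100 kb of gene body and flank, the 10 genes held 0.966 ± 0.738 peaks without stimulation, 2.90 ± 2.06 after LPS and 2.74 ± 1.82 with apoptotic cells (SD, n = 3 each). Over all protein-coding genes, the same density was 1.01 ± 0.165, 2.13 ± 0.675 and 2.07 ± 1.09. The mean density at the LPS signalling genes thus differed from that at all genes by less than its spread between replicates in every condition. Both densities come from the same replicates, so their ratio is also given for each replicate. It was 0.314, 0.970 and 1.53 without stimulation, 1.23, 0.721 and 1.79 after LPS, and 0.988, 1.40 and 1.46 with apoptotic cells. The ratios lay on both sides of 1 in every condition.

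**Figure D1:**
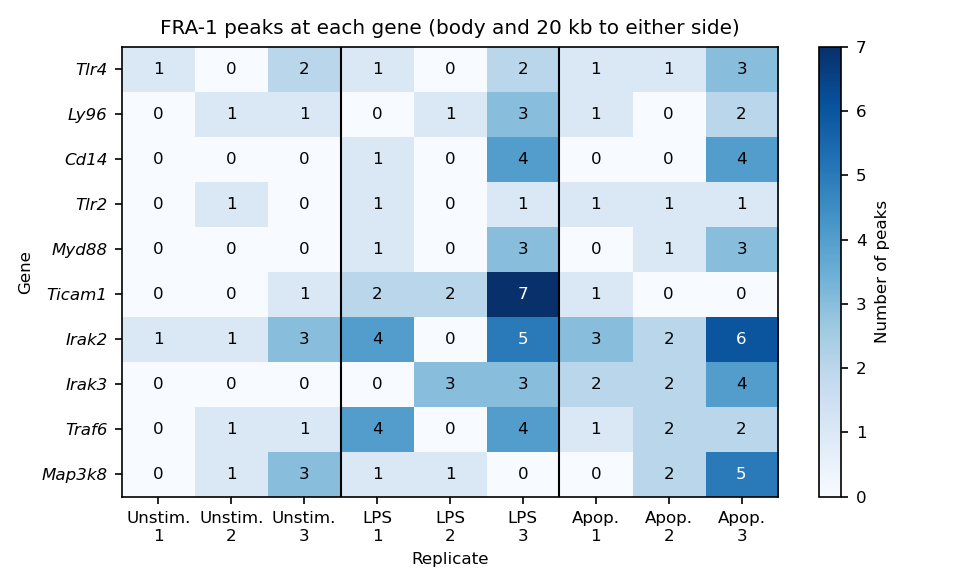
Number of FRA-1 peaks at each of the 10 genes (rows) in each of the 9 replicates (columns), counted over the gene body and 20 kb to either side. Numbers and shading give the count. Ticam1 is the only row in which every LPS replicate (2, 2 and 7 peaks) exceeds every unstimulated replicate (0, 0 and 1). Irak3 is the only row in which every apoptotic cell replicate (2, 2 and 4) does so. These 2 calls were made at 9.87% and 6.57% of all protein-coding genes.

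After LPS, 10 of the 10 genes had a peak in at least 2 replicates, a call that 73.6% of all protein-coding genes also received. The count fell to 3 genes without LPS replicate 1 and 2 genes without LPS replicate 3, when both remaining replicates had to have a peak, against 51.6% and 46.2% of all genes. Without stimulation the count was 5 genes (44.7% of all genes), and it fell to 1 gene without unstimulated replicate 3 and 2 genes without unstimulated replicate 2, against 24.9% and 30.5% of all genes. With apoptotic cells it was 8 genes (69.7% of all genes), and 5 without apoptotic cell replicate 3 (39.9%). Most of these peaks did not lie at the same place in the replicates that counted. A single region shared by at least 2 replicates of the condition was found at 0 genes without stimulation, 4 genes after LPS (Ticam1, Irak2, Irak3 and Traf6) and 0 genes with apoptotic cells. The same call was made at 13.5%, 48.7% and 24.4% of all genes. A region in all 3 replicates was found at 0 genes without stimulation (6.11% of all genes) and 0 genes with apoptotic cells (14.3%). The 4 genes after LPS fell to 2 without LPS replicate 1 and 1 without LPS replicate 3, and the share of all genes fell to 16.5% and 15.1%.

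**Figure D2:**
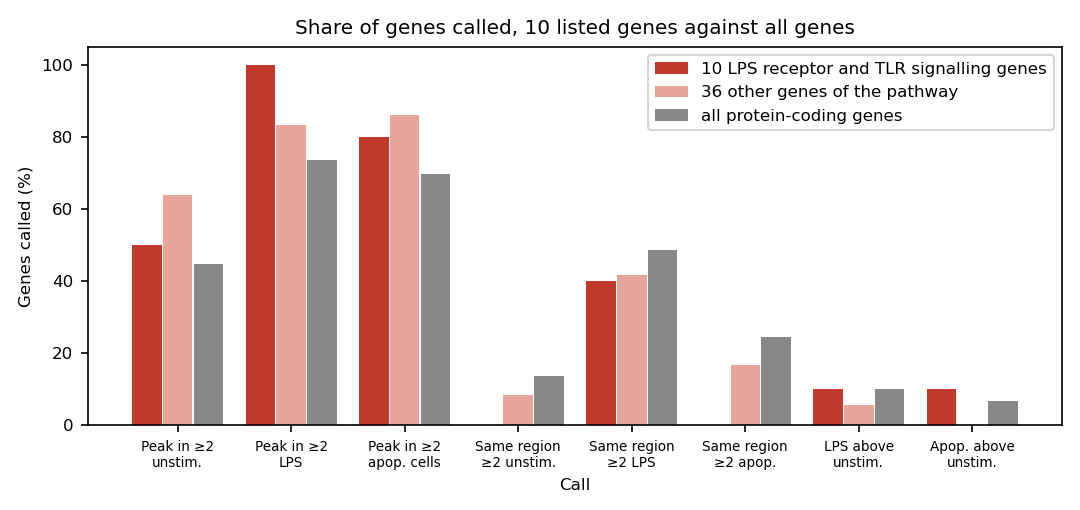
Percentage of genes that met each call (x axis), for the 10 LPS receptor and TLR signalling genes, 36 other genes of the pathway and all 21883 protein-coding genes. The bars for the 10 genes stand for 1 gene per 10%. They are highest for a peak in at least 2 LPS replicates (10 of 10 genes against 73.6% of all genes) and at 0 for a region shared by at least 2 unstimulated or at least 2 apoptotic cell replicates.

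Merged over all 9 replicates, the 123 peaks at these genes formed 107 regions, of which 36 lay in the listed gene itself and 29 overlapped another RefSeq gene. A peak in a single replicate made up 98 of the 107 regions (91.6%), close to the 89.7% among all 300608 regions of the genome. The remaining 9 regions had a peak in at least 2 replicates, with 1 region in 5 replicates, 1 in 4, 2 in 3 and 5 in 2. The scores of the 123 peaks ranged from 54.0 to 513.21 with a median of 128.9. The scale of the score is not given in the sources used here and differed between replicates, so that each score's percentile within its own replicate is given as well. The median percentile at the 10 genes was the 45.1st, and 5 peaks lay above the 90th. Scores came in steps shared by many peaks, and 10 of the 123 peaks carried the commonest score of their replicate.

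The most recurrent region lay in Ticam1, which encodes TRIF (chromosome 17 from 56269462 to 56276767, transcribed towards lower coordinates). It extended from 56275642 to 56275842, which is 925 to 1125 bp downstream of the transcription start and within the gene. LPS replicates 1, 2 and 3 had a peak there with scores of 222.56, 89.28 and 344.84. Unstimulated replicate 3 had a peak with a score of 128.85 and apoptotic cell replicate 1 one with 129.52, and the other 4 replicates had none. All 3 LPS replicates thus had the peak, against 1 of 3 in either other condition. A region with a peak in all 3 LPS replicates was found at 14.7% of all genes, and a region in at least 5 of the 9 replicates at 21.5%.

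The left edges of the peaks from the LPS replicates and apoptotic cell replicate 1 fell between 56275672 and 56275674, so that they began within a few bases of each other. In their own replicates, the LPS peaks lay at the 83.9th, 23.0th and 89.1st percentile. The unstimulated peak lay at the 39.0th and the apoptotic cell peak at the 56.1st percentile. The score of 129.52 was the commonest of its replicate and was shared by 5881 peaks. The highest scores at this site were thus those of LPS replicates 1 and 3, both of the narrow class, and LPS replicate 2, of the wide class, had the lowest of the 5. The deposited tables assigned all 5 of these peaks to Ticam1.

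Ticam1 was also the only one of the 10 genes with more peaks in every LPS replicate (2, 2 and 7) than in every unstimulated replicate (0, 0 and 1). This call was made at 9.87% of all genes, so that 1 of 10 genes is the background share. Without LPS replicate 2 the call was made at 5 of the 10 genes, against 25.8% of all genes. The mean was 3.67 ± 2.89 peaks after LPS and 0.333 ± 0.577 without stimulation (SD, n = 3 each; two-sided exact permutation p = 0.1, which is the lowest value possible for 3 against 3, and adjusted p = 0.980 over all 21883 genes). Every LPS replicate also had more peaks at Ticam1 than every apoptotic cell replicate (1, 0 and 0; 1.99% of all genes). Either call was lost under every other distance, score limit or assignment tried, and LPS replicates 1 and 2 each had 1 peak besides the shared one. No gene of the 10 had fewer peaks in every LPS replicate than in every unstimulated (0.192% of all genes) or every apoptotic cell replicate (1.28%). Of the 7 peaks of LPS replicate 3, the one from 56274825 to 56274939 had a score of 284.82 and lay 1828 to 1942 bp downstream of the start. A further 3, between 56279259 and 56280642, lay in the neighbouring gene Plin3, which codes for a lipid droplet protein.

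Traf6 encodes the ubiquitin ligase on which the MyD88 branch converges (chromosome 2 from 101678420 to 101701668, transcribed towards higher coordinates). It had the highest-scoring region of the 10 genes, from 101692528 to 101692696, which is 14108 to 14276 bp downstream of the start and within the gene. The scores were 290.79 and 513.21 in LPS replicates 1 and 3, 244.1 in unstimulated replicate 3 and 133.53 in apoptotic cell replicate 2. These lay at the 92.1st, 99.0th, 88.8th and 41.7th percentile of their replicates. The other 5 replicates, LPS replicate 2 among them, had no peak there. The first 3 are narrow class replicates, and whether the width class has a part in this was not tested. A region in at least 4 of the 9 replicates was found at 27.9% of all genes.

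Over the whole of Traf6 and its flanks, the replicates had 0, 1 and 1 peaks without stimulation, 4, 0 and 4 after LPS and 1, 2 and 2 with apoptotic cells. The LPS replicates lay on both sides of the unstimulated ones. None of the peaks in the recurrent region carried the symbol Traf6 in the deposited tables, which gave it to 3 other peaks, from 1381 to 6159 bp downstream of the start.

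Irak2 encodes an IRAK family kinase that sustains signalling from MyD88 to TRAF6 (chromosome 6 from 113638467 to 113695026, transcribed towards higher coordinates). The replicates had 1, 1 and 3 peaks without stimulation, 4, 0 and 5 after LPS and 3, 2 and 6 with apoptotic cells. LPS replicates 1 and 3 were above every unstimulated replicate and LPS replicate 2 was below all of them. Both regions of this gene with a peak in 3 replicates lay outside it. The one beyond the 3′ end, from 113713489 to 113713625, was 18463 bp from the gene and had scores of 131.8 and 392.15 in LPS replicates 1 and 3 and 84.9 in apoptotic cell replicate 3. The one upstream, from 113628813 to 113629127, was 9340 bp from the gene and lay in Vhl, whose product targets HIF subunits for degradation. Its scores were 178.46 and 182.77 in LPS replicates 1 and 3 and 87.63 in apoptotic cell replicate 1. Neither region was listed in an unstimulated replicate or in LPS replicate 2. A region in at least 3 of the 9 replicates was found at 37.7% of all genes and at 3 of the 10 genes.

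**Figure D3:**
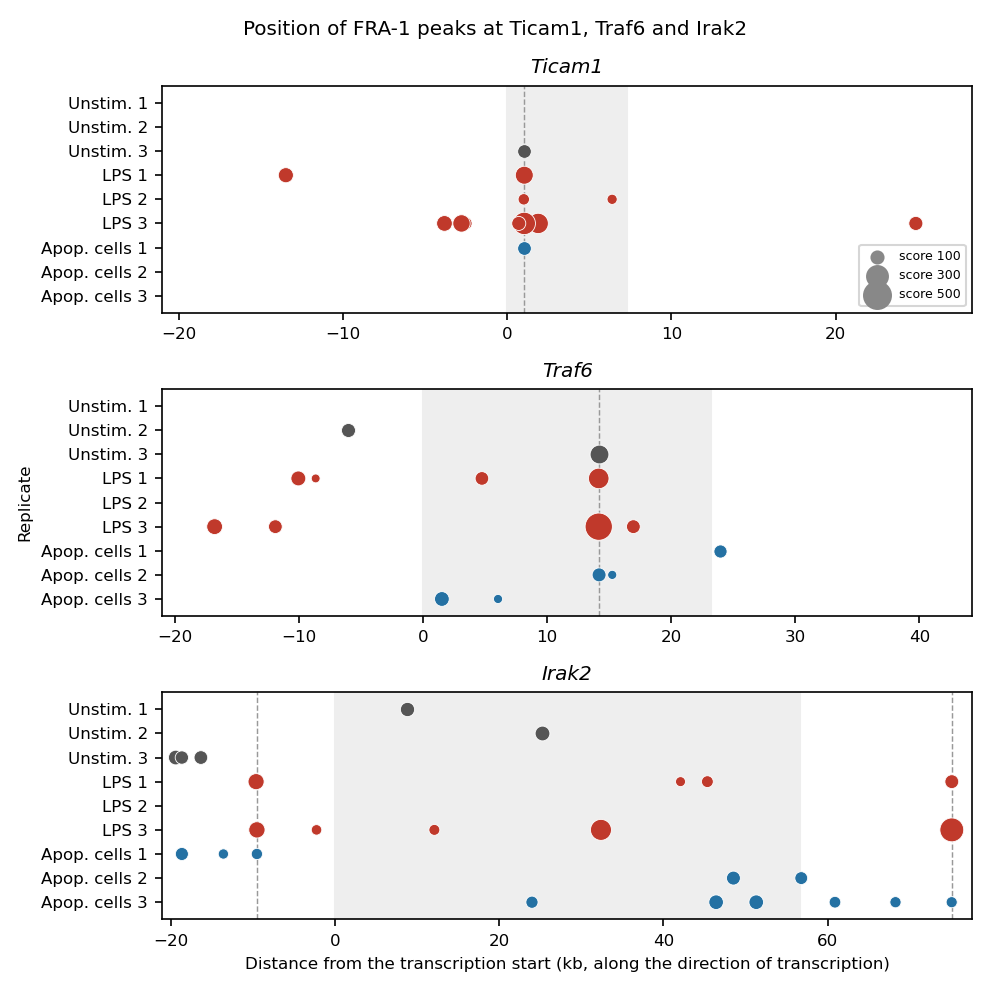
Position of every FRA-1 peak at Ticam1, Traf6 and Irak2, as the distance of its middle from the transcription start in kb (x axis), for each replicate (y axis). Point area is proportional to the score, grey shading marks the gene body and dashed lines mark the places where 3 or more replicates share a peak. The dashed line in Ticam1 runs through all 3 LPS replicates, while those at Traf6 and Irak2 pass LPS replicates 1 and 3 but not 2.

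Irak3 encodes IRAK-M, a pseudokinase that restrains TLR signalling and is raised in endotoxin tolerance (chromosome 10 from 120141648 to 120202130, transcribed towards lower coordinates). The unstimulated replicates had 0 peaks each, the LPS replicates 0, 3 and 3, and the apoptotic cell replicates 2, 2 and 4. Every apoptotic cell replicate was above every unstimulated one (2.67 ± 1.15 against 0 peaks, n = 3 each, two-sided exact permutation p = 0.1, adjusted p = 1.0 over all genes), a call made at 6.57% of all genes. The call at Irak3 was kept with scores of at least 100, above the replicate's median and with equal numbers of peaks, and lost with 5 kb, 50 kb or no flank and with the deposited symbols alone. The opposite call, fewer peaks in every apoptotic cell replicate, was made at 0 of the 10 genes (0.165% of all genes). The 8 apoptotic cell peaks lay at 8 different places, 3 of them in the neighbouring gene Tmbim4. The highest of these, in replicate 3 from 120215373 to 120215481, had a score of 223.11 at the 96.2nd percentile. The only shared region, from 120140280 to 120140819, was 829 bp beyond the 3′ end and held peaks of LPS replicates 2 and 3 with scores of 105.4 and 91.33.

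**Figure D4:**
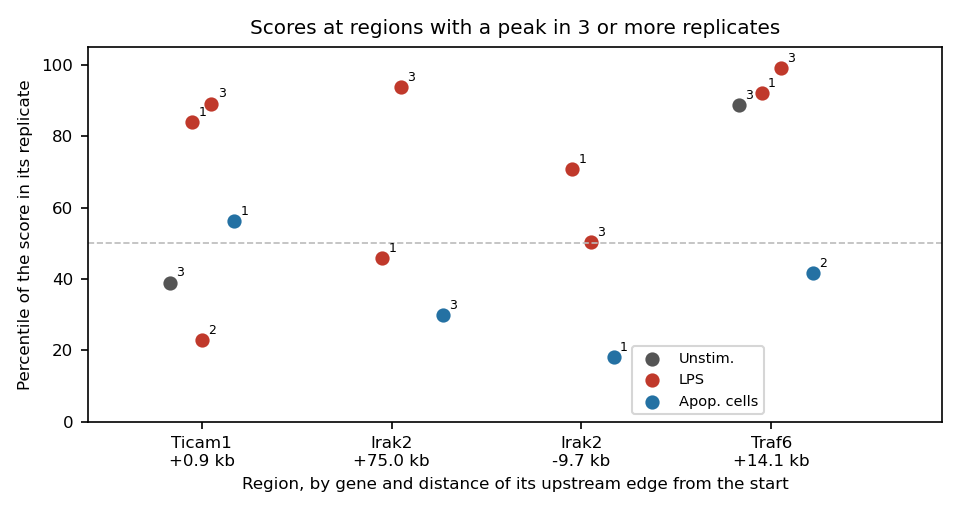
Percentile of each peak's score among all peaks of its replicate (y axis) at the 4 regions with a peak in 3 or more replicates (x axis, by gene and distance of the upstream edge from the transcription start). Each point is 1 replicate, numbered beside it and coloured by condition, and replicates without a peak are not drawn. The highest point is LPS replicate 3 at Traf6 (99.0th percentile). LPS replicate 3 beyond the 3′ end of Irak2 (93.8th) and LPS replicate 1 at Traf6 (92.1st) come next. The apoptotic cell points range from the 18.1st to the 56.1st.

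At the receptor genes no region recurred within a condition. Tlr4, the signalling receptor for LPS (chromosome 4 from 66827551 to 66846581), had 1, 0 and 2 peaks without stimulation, 1, 0 and 2 after LPS and 1, 1 and 3 with apoptotic cells. The unstimulated and LPS means were the same at 1.0 ± 1.0 (SD, n = 3 each). Of its 10 regions, 1 lay inside the gene, with a score of 112.13 in unstimulated replicate 1. The only region in 2 replicates, 12118 bp beyond the lower-coordinate end, had scores of 55.61 in unstimulated replicate 3 and 181.82 in LPS replicate 3.

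Ly96 encodes the LPS-binding partner of TLR4 (chromosome 1 from 16688456 to 16709605). Its replicates had 0, 1 and 1 peaks without stimulation, 0, 1 and 3 after LPS and 1, 0 and 2 with apoptotic cells, and the 3 conditions overlapped. One region inside the gene, from 16690878 to 16691143, was shared by unstimulated replicate 3 with a score of 185.54 and apoptotic cell replicate 1 with 124.69. Another, 12448 bp beyond the higher-coordinate end, was shared by LPS replicate 3 with a score of 171.56 and apoptotic cell replicate 3 with 128.9. Those scores are steps held by 4454 and 4183 peaks of their replicates.

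Cd14 encodes the co-receptor that transfers LPS to TLR4 and MD-2 (chromosome 18 from 36725064 to 36726815). It had 0 peaks in each unstimulated replicate, 1, 0 and 4 after LPS, and 0, 0 and 4 with apoptotic cells. The 8 peaks of LPS replicate 3 and apoptotic cell replicate 3, which have the longest peak lists, lay at 8 different places. None of the 9 regions lay inside Cd14, which is the shortest of the 10 genes. The nearest, 390 bp beyond the higher-coordinate end, had a score of 64.05 in apoptotic cell replicate 3 and was the only peak the deposited tables assigned to Cd14.

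Tlr2, a receptor for bacterial lipoproteins (chromosome 3 from 83836272 to 83841824, transcribed towards lower coordinates), had 0, 1 and 0 peaks without stimulation, 1, 0 and 1 after LPS and 1 in each apoptotic cell replicate. It thus had a peak in all 3 apoptotic cell replicates, but at 3 different places. The one inside the gene, from 83836817 to 83837032, had a score of 166.0 in replicate 1. The highest score at Tlr2 was 202.89, in unstimulated replicate 2 and 9680 bp upstream of the gene.

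Myd88, the adaptor of nearly all TLRs (chromosome 9 from 119335934 to 119340018, transcribed towards lower coordinates), had 0 peaks in each unstimulated replicate, 1, 0 and 3 after LPS and 0, 1 and 3 with apoptotic cells. All 8 peaks lay at different places, and 1 of them, in LPS replicate 1 with a score of 77.5, was inside the gene. The highest, with a score of 208.17 in LPS replicate 3, lay in the neighbouring gene Xylb. A peak of apoptotic cell replicate 3 with a score of 165.47 carried the symbol Myd88 in the deposited table but lay in the neighbouring gene Acaa1a, 2180 bp upstream of Myd88. Another, with a score of 67.61, lay over the promoter of the neighbouring gene Oxsr1.

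Map3k8 encodes TPL-2, the kinase through which TLRs activate ERK (chromosome 18 from 4331325 to 4352953). It had 0, 1 and 3 peaks without stimulation, 1, 1 and 0 after LPS and 0, 2 and 5 with apoptotic cells. It was the only one of the 10 genes whose mean was lower after LPS than without stimulation, by less than the spread between replicates (0.667 ± 0.577 against 1.33 ± 1.53, SD, n = 3 each, exact permutation test over all genes, adjusted p = 1.0). No 2 replicates shared a region at Map3k8, and 7 of its 13 regions lay inside the gene. The highest score was 213.41, in apoptotic cell replicate 3 and 15743 bp beyond the lower-coordinate end.

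Promoters were taken from RefSeq (GRCm38.p6) as 250 bases before to 50 bases after a transcription start, and 7 of them matched 6 of the genes (Traf6, Tlr2, Irak2, Myd88, Irak3 and Ticam1). None of these 7 promoters overlapped a peak in any of the 9 replicates. Over all 32851 promoters, 0.268 to 0.347% overlapped a peak in the unstimulated replicates, 0.627 to 0.931% in the LPS replicates and 0.533 to 1.12% in the apoptotic cell replicates. The AP-1 site, written as TGAGTCA or on the other strand as TGACTCA, was found in 0 of the 7 promoters and in 5.20% of all promoters. The looser TGANTCA, which includes both, was found in 0 of 7 and 7.81%, and the CRE letters TGACGTCA in 0 of 7 and 1.79%.

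Of 36 other genes of the pathway, 23 had a peak in at least 2 unstimulated replicates, 30 in at least 2 LPS replicates and 31 in at least 2 apoptotic cell replicates (63.9%, 83.3% and 86.1%, against 44.7%, 73.6% and 69.7% of all genes). The median window of the 36 genes was 65681 bp, against 57170 bp for all genes, and the neighbours Tlr1 and Tlr6 shared some peaks. A single region in at least 2 replicates of the condition was found at 3, 15 and 6 of the 36 genes, against 13.5%, 48.7% and 24.4% of all genes. Tab1 (0, 0 and 1 against 2, 2 and 7 peaks) and Pik3ap1 (3, 3 and 2 against 4, 4 and 5 peaks) had more peaks in every LPS than in every unstimulated replicate, which is 2 of 36 genes against 9.87% of all genes. Ly86 had fewer (1, 1 and 2 against 0 in each LPS replicate), which is 1 of 36 against 0.192%. These 3 genes were picked by that call. With apoptotic cells, 0 of the 36 genes were above and 0 below every unstimulated replicate (6.57% and 0.165% of all genes), and no gene of any kind (0 of 21883) had an exact permutation p under 0.05, adjusted or not, which 3 replicates against 3 cannot give.

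Among these 36 genes, the regions in the most replicates were those at Map2k1, Irak1, Map2k6, Tab1, Tollip and Sigirr. Map2k1, which encodes the ERK kinase MEK1, held a region within the gene with a peak in all 9 replicates. Its scores were 496.44, 525.37 and 538.52 without stimulation, 565.21, 455.84 and 337.3 after LPS and 415.63, 293.03 and 365.94 with apoptotic cells. The LPS scores overlapped those of both other conditions there, while every apoptotic cell score was below every unstimulated one. The scale of the score differed between replicates. As percentiles of their replicates, the unstimulated peaks (99.5th to 99.7th) and the apoptotic cell peaks (96.6th to 99.6th) overlapped. Irak1, a kinase recruited by MyD88, had a region in 7 replicates 4691 bp beyond its lower-coordinate end, listed in all 3 unstimulated replicates with scores of 140.93, 150.95 and 196.7 in LPS replicates 1 and 3 with 222.56 and 365.26, and in apoptotic cell replicates 1 and 2 with 169.85 and 175.18. Map2k6, a p38 kinase, had a region in 6 replicates inside the gene, again in all 3 unstimulated replicates (99.78, 150.95 and 107.3), in LPS replicates 1 and 3 (409.93 and 365.26) and in apoptotic cell replicate 3 (184.35). Tab1, a partner of the kinase TAK1, and Tollip and Sigirr, both inhibitors of TLR signalling, had regions in 6 replicates outside the gene. These 6 genes were picked by the number of replicates at their best region. A region in at least 5 of the 9 replicates was found at 7 of the 36 genes and 1 of the 10 listed genes, against 21.5% of all genes. Over the genome, 1372 of 300608 regions had a peak in all 9 replicates.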

How the data were processed

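FRA-1 ChIP-seq peaks of unstimulated, LPS-stimulated and apoptotic cell-treated macrophages were analysed, with 3 replicates per condition, and the 3 pooled inputs were not used here. The authors deposited 1 peak table per condition with a score per replicate (−1 for no peak), a count of the replicates that had one and the summed scores. The last 2 matched the replicate columns in 100% of rows. The submitters' processing notes name BWA 0.7.14, bedtools, mm10 and GRCm38, and the peak caller is not given in the sources used here. Depth is unknown and no interval can be given.

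Neighbouring segments of equal score were taken as 1 peak, and touching or overlapping peaks were merged into regions. Gene positions are from RefSeq for GRCm38.p6. Directions of transcription come from the RefSeq promoter table, which lacks Tlr4, Ly96, Cd14 and Map3k8, so that for these genes ends are given by coordinate. Numbers of peaks per gene were compared by non-overlap and by exact permutation tests with Benjamini-Hochberg adjustment over 21883 genes. All 10 genes are named. Of the 36 other genes, at most 6 are named by the number of replicates at their best region, and others where stated. The members and lists were chosen with earlier results of these data known. Columns carry no mouse label, so replicates were unpaired. Each p-value is the share of ways to relabel the samples that gave a difference in means at least as large. It covers only these samples. Alternatives were other distances (5 kb, 50 kb, none), the deposited symbols alone, a minimum score of 100 or of the replicate's median, the 20981 highest-scoring peaks of each replicate, and leaving out replicates. Among peaks with tied scores at the limit of 20981, those earlier in the order of chromosome names were kept. Regions shared within a condition and the width classes were added after seeing the data. The scripts were tested on simulated data. Python 3.11.15, numpy 2.4.6, pandas 2.3.3 and matplotlib 3.10.9 were used.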

Additional observations from a re-analysis of the deposited data

How the results depend on the processing

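The counts of genes moved with the distance, the score limit and the replicates kept, as did the shares of all genes, given in brackets. Genes with a peak in at least 2 replicates numbered 3 without stimulation, 5 after LPS and 5 with apoptotic cells within 5 kb of the gene (26.5%, 48.4% and 43.1%), 3, 4 and 4 in the gene body (20.9%, 36.2% and 32.4%), and 9 without stimulation within 50 kb (72.8%). They numbered 0, 2 and 1 by the deposited symbols alone (1.79%, 7.61% and 3.98%), and 2, 4 and 2 above the median score (25.0%, 45.3% and 39.5%). With equal numbers of peaks they were 4 after LPS and 5 with apoptotic cells (44.4% and 41.7%). Genes with 1 region in at least 2 LPS replicates numbered 2 in the gene body (24.5%) and 2 with equal numbers (32.6%), and within 50 kb such regions appeared at 1 gene without stimulation (22.2%) and 2 with apoptotic cells (38.2%). Genes with more peaks in every LPS than in every unstimulated or every apoptotic cell replicate fell to 0 under all 7 settings, these and a score of at least 100 (0.411 to 15.5% and 0.251 to 2.79%). Those with more in every apoptotic cell than in every unstimulated replicate fell to 0 with 5 kb, 50 kb, the gene body and the deposited symbols (0.119 to 10.0%). The cause was not tested.

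With each replicate left out, genes with a peak in at least 2 replicates ranged from 1 to 4 without stimulation (24.9 to 30.5%), 2 to 7 after LPS (46.2 to 60.8%) and 5 to 7 with apoptotic cells (39.9 to 55.0%), and genes with 1 region in at least 2 LPS replicates from 1 to 3 (15.1 to 47.5%). Genes with more peaks in every LPS than in every unstimulated replicate ranged from 1 to 5 (12.2 to 25.8%), with 2 without LPS replicate 1 and 5 without LPS replicate 2. The same call ranged from 1 to 3 for apoptotic cells against no stimulation (8.17 to 19.3%), with 2 without unstimulated replicate 2 or 3 and 3 without apoptotic cell replicate 1. For LPS against apoptotic cells it ranged from 1 to 2 (2.81 to 8.52%), with 2 without LPS replicate 2. Without both unstimulated replicate 3 and LPS replicate 2, chosen after seeing the data, 1 gene had a peak in at least 2 unstimulated replicates (24.9%), 5 genes were higher after LPS (34.6%), 2 were higher with apoptotic cells (12.3%) and 2 were higher after LPS than with apoptotic cells (8.3%). Of 420 differences per gene under these settings, 400 moved by no more than the larger SD of the 2 groups compared. That SD could exceed the difference itself, as at Cd14 for LPS against no stimulation (difference 1.67, SD 2.08 after LPS). A difference could thus vanish or change sign and still count as unmoved, so that this count does not measure stability. No paired analysis was possible because columns name no mouse.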

Other observations

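At the region in Vhl upstream of Irak2, the peaks of LPS replicate 3 and apoptotic cell replicate 1 had the same start and the same end, from 113628813 to 113629127, with scores of 182.77 and 87.63. The peak of LPS replicate 1 shared their start. Of the 9880 peaks of LPS replicate 3 that overlapped a peak of apoptotic cell replicate 1, 10 had both ends in common.

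Ikbkg and Tlr9, both among the other genes of the pathway, have promoters with the AP-1 letters TGAGTCA or TGACTCA, in 3 of the 42 promoters that matched 29 of these genes, against 5.20% of all promoters.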
